A study of Mus musculus with 9 samples.

Results

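The genes described here are the expressed members of the mouse Zfp series, protein-coding genes whose symbol is Zfp followed by a number. They were chosen from the exon read counts by symbol and level: a row had to be annotated as protein coding and had to reach a mean of at least 10 CPM, counts scaled to a common library total, over all 9 libraries. Of 52550 rows, 365 carried such a symbol. Of these, 6 were set aside by name, 215 lay under the limit, and 144 were kept. The limit was set on the mean over both genotypes, so near it a member could pass through the group where it was high. The DKO mean was under 10 CPM in 5 members. Of these, 4 fell (Zfp775, Zfp820, Zfp981 and Zfp984) and 1 did not pass (Zfp945). The WT mean was under 10 CPM in 8 members. Of these, 5 rose (Zfp365, Zfp760, Zfp101, Zfp800 and Zfp524) and 3 did not pass. These directions are in part set by the choice of members, and 43 of the other 131 members rose and 15 fell. Zfp981, at 10.3 CPM, was the nearest member inside the limit and Zfp768, at 9.90 CPM, the nearest gene outside it. Of the 215 genes under the limit, 20 had no count in any library.

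The libraries came from V6.5 mouse embryonic stem (ES) cells, a line able to form all tissues of the embryo. There were 5 libraries labelled as a double knockout of KLF2 and KLF4 (DKO) and 4 labelled wild type (WT). KLF2 and KLF4 are zinc finger transcription factors of the naive pluripotency network. Both genotypes shared 1 medium (Knockout DMEM, serum at 15%, LIF, an inhibitor of GSK and an inhibitor of MEK), and 600 ng of Trizol-extracted total RNA went into the forward QuantSeq kit, which reads the 3' ends of polyadenylated transcripts. Levels of genes are therefore set side by side without dividing by length. How the knockout was made, the deleted part of each gene and the number of clones were not given in the sources used here. The replicates were not described as separate cultures, so p-values measure only the spread between these libraries, which may be technical.

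Most Zfp genes encode proteins with arrays of C2H2 zinc fingers, small folds held by a zinc ion that together read a stretch of DNA. Many also carry a KRAB domain, which recruits the corepressor TRIM28 and through it the methyltransferase SETDB1, so that heterochromatin forms at the bound site. In ES cells and the early embryo such proteins are known for silencing retroelements, and their genes multiplied by tandem duplication, which left runs of related copies on several chromosomes. Other Zfp genes are single, conserved genes with roles in transcription, RNA and ribosome biology.

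Library totals ran from 6035642 to 7098530 counts, and a member had between 31 counts (a library's count of Zfp981) and 4390 counts (of Zfp207) per library. The label check went against the knockout: Klf2 averaged 615 ± 19.0 CPM in DKO and 460 ± 9.87 CPM in WT libraries, and Klf4 averaged 1595 ± 140 CPM in DKO and 848 ± 49.1 CPM in WT libraries (SD, n = 5 and 4). Reads at a 3' end outside the deleted part check nothing, so every direction below is that of the libraries labelled DKO relative to those labelled WT, called DKO and WT for short. CPM given per library are also scaled by TMM factors of 0.9849 to 1.0137. The 6 ES cell markers examined had counts in every library and summed to 2858 to 3011 CPM in DKO and 2085 to 2144 CPM in WT. They did not all go the same way, with Tdgf1 at 150 to 178 CPM in DKO and 292 to 301 CPM in WT. The 9 fibroblast markers, examined because feeder cells could be present, summed to 1.97 to 5.33 CPM in DKO and 4.11 to 5.98 CPM in WT, with Lum at 0 in all libraries.

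The members were mostly low to moderate in level. Their median was 25.7 CPM, 13 reached 100 CPM and 60 lay under 20 CPM. Together they took 0.702% ± 0.00945 of the counts in DKO (SD, n = 5, range 0.688 to 0.714%) and 0.665% ± 0.00281 in WT (SD, n = 4, range 0.663 to 0.669%), so that the groups did not overlap. In bulk RNA, fewer cells of a type and less RNA per cell cannot be told apart.

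By edgeR's quasi-likelihood test, with p-values adjusted over all genes tested at 0.05, 48 of the 144 members rose in DKO, 19 fell and 77 did not pass. Of all 11893 genes tested, 23.9% rose and 24.0% fell. The share of members called, 46.5%, lay near the 47.8% called among all genes and under the 52.1% called among the 7911 protein-coding genes of at least 10 CPM. By direction, 33.3% of members rose and 13.2% fell, whereas 26.9% of those protein-coding genes rose and 25.2% fell. The members' median log2 fold change was 0.14, against 0.01 both over all genes and over protein-coding genes of at least 10 CPM. Values above 0 were found for 102 members and values below 0 for 42.

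Most of these changes were small. The smallest called change had a size of 0.15 on the log2 scale. A change of at least 2-fold was called in 1 member that rose (Zfp988) and in 2 that fell (Zfp775 and Zfp820). The DKO means of these 2 falls, 9.26 and 9.12 CPM, lay under 10 CPM, so their direction is in part set by the choice of members. In 46 of the called members the CPM of the 5 DKO and 4 WT libraries did not overlap, which is 31.9% of members beside 36.1% of all genes tested and 39.8% of protein-coding genes of at least 10 CPM. Rises outnumbered falls in each range of level: of 33 members of 50 CPM or more, 10 rose and 5 fell with a median of 0.06, of 51 members of 20 to 50 CPM, 20 rose and 7 fell with a median of 0.16, and of 60 members of 10 to 20 CPM, 18 rose and 7 fell with a median of 0.18.

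**Figure D1:**
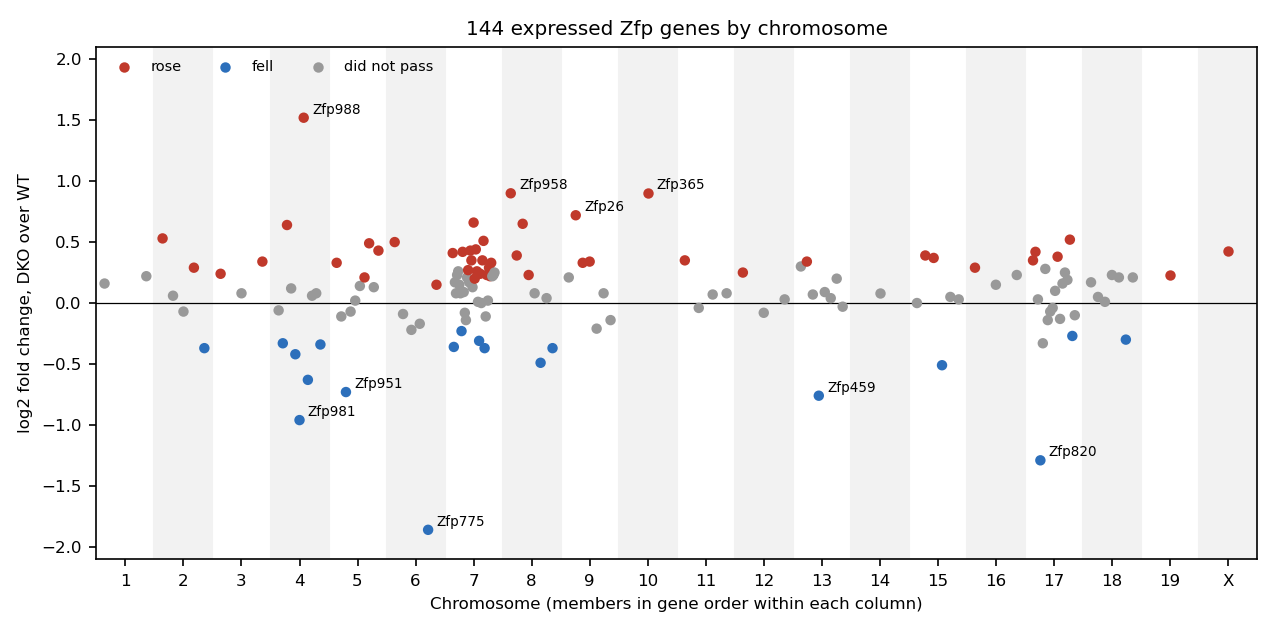
Log2 fold change (DKO over WT, vertical axis) of each of the 144 members, placed by chromosome and in gene order within each column (horizontal axis), with colours for members that rose, fell or did not pass. Most points lie between −0.5 and 0.5, chromosome 7 holds the most members, and Zfp988 and Zfp775 stand at the ends of the range, at 1.52 and −1.86.

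The member that rose most was Zfp988 (ENSMUSG00000078498, chr4:147305674-147333734 on mm10), a KRAB gene with 14 predicted fingers in the run of Zfp genes at the distal end of chromosome 4. It was counted at 49.2, 38.7, 40.05, 46.9 and 47.9 CPM in DKO 1 to 5, against 15.7, 17.4, 15.9 and 13.2 CPM in WT 1 to 4. Every DKO library lay far above every WT library (log2 fold change 1.52, SE 0.10, adjusted p = 2.1e-14). The member that fell most was Zfp775 (ENSMUSG00000007216, chr6:48602063-48623227), an 11-finger gene on chromosome 6. Its values were 10.02, 10.2, 8.21, 8.61 and 9.27 CPM in DKO 1 to 5, against 34.7, 37.1, 32.2 and 30.8 CPM in WT 1 to 4. All DKO libraries lay under a narrow band of WT libraries (log2 fold change −1.86, SE 0.11, adjusted p = 1.0e-15). Exons of Zfp775 overlap the annotated genes Gm44965 and Gm45021 on its strand and Gm38804 on the other, so some of its reads may belong to those. The next largest fall was that of Zfp820 (ENSMUSG00000069743, chr17:21816885-21845772), a 12-finger KRAB gene on chromosome 17. It was counted at 7.18, 10.03, 8.21, 10.3 and 9.89 CPM in DKO 1 to 5, against 21.99, 24.1, 19.4 and 23.6 CPM in WT 1 to 4. The groups were again fully apart (log2 fold change −1.29, SE 0.13, adjusted p = 3.9e-10), and Zfp820 overlaps no other gene's exons.

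Below these, 3 genes rose by at least 0.7. Zfp365, whose human counterpart is a centrosomal protein, had 19.6, 17.4, 20.7, 13.2 and 12.9 CPM in DKO 1 to 5, against 10.6, 6.25, 10.4 and 8.66 CPM in WT 1 to 4 (log2 fold change 0.90, SE 0.16, adjusted p = 3.4e-05). Zfp958, a KRAB gene near the start of chromosome 8, had 24.97, 27.7, 27.7, 28.2 and 25.1 CPM in DKO 1 to 5, against 11.1, 14.03, 16.01 and 15.9 CPM in WT 1 to 4 (log2 fold change 0.90, SE 0.11, adjusted p = 4.4e-08). Zfp26, a 22-finger KRAB gene on chromosome 9, had 36.3, 41.7, 29.7, 34.1 and 39.4 CPM in DKO 1 to 5, against 21.7, 21.7, 23.4 and 21.2 CPM in WT 1 to 4 (log2 fold change 0.72, SE 0.10, adjusted p = 2.4e-07). In each of the 3 genes the lowest DKO library was above the highest WT library, with the narrowest gap in Zfp365. Among the falls, Zfp459 on chromosome 13 had 21.98, 23.97, 26.3, 26.7 and 31.9 CPM in DKO 1 to 5, against 45.3, 44.4, 43.3 and 43.7 CPM in WT 1 to 4 (log2 fold change −0.76, SE 0.09, adjusted p = 2.1e-08), and its WT libraries were nearly level. Zfp951 on chromosome 5, a 10-finger KRAB gene, had 11.7, 15.8, 14.9, 14.2 and 7.85 CPM in DKO 1 to 5, against 19.9, 23.8, 18.1 and 23.9 CPM in WT 1 to 4 (log2 fold change −0.73, SE 0.15, adjusted p = 1.3e-04). Among the DKO libraries, DKO 5 was the lowest for Zfp951 and the highest for Zfp459.

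**Figure D2:**
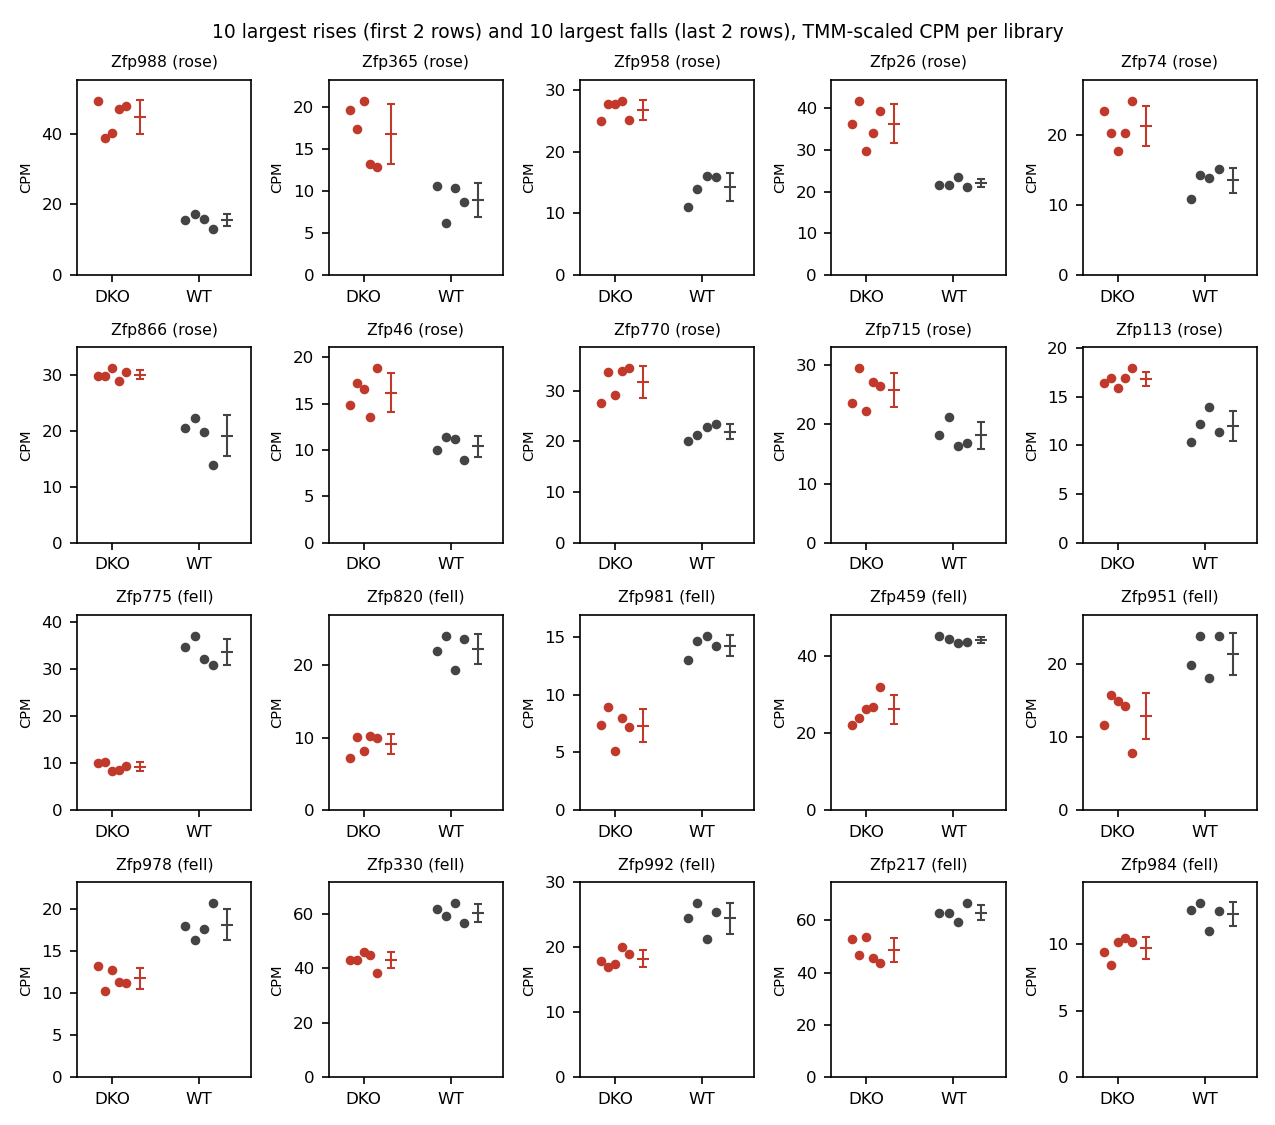
CPM (vertical axis, from 0) of each library for the members with the largest rises and falls, DKO left of WT in each panel, with points for libraries, a dash for the group mean and whiskers for its SD. The panels were picked for groups that do not overlap, and Zfp988 and Zfp775 show the widest separation.

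Members were grouped by position. A run was defined as a series of protein-coding Zfp genes in which neighbouring starts lie no more than 1 Mb apart. The 144 members, on 20 chromosomes, fell into 82 runs: 59 held a single member, 8 held 2, 6 held 3 and 9 held 4 or more. In the 9 largest runs 18 of 51 members rose and 9 fell, with a median of 0.12. Of the 59 single members 21 rose and 7 fell (median 0.13), and of the 34 members in runs of 2 or 3, 9 rose and 3 fell (median 0.17). Members in large runs therefore rose at a share close to that of single members, 35.3% and 35.6%.

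The run at 145.5 to 147.8 Mb of chromosome 4 held 18 Zfp genes, 8 of them members: Zfp990, Zfp992, Zfp981, Zfp988, Zfp978, Zfp985, Zfp979 and Zfp984. The coding sequences of all 8 match a KRAB core pattern. It held the largest rise next to falls, with 1 member up, 4 down and 3 not passing, a median of −0.14 and a range of −0.96 to 1.52. Of 32 other genes tested within 1 Mb of the run, 2 rose and 9 fell (median −0.13). The start-site windows of 3 of these genes, 250 bases before to 50 after a RefSeq transcript start on GRCm38.p6, are shown because the windows are related while 1 gene rose, 1 fell and 1 did not pass. They are written 5' to 3' on the gene's strand, as are those further down. They lie at chr4:147305354-147305653 (plus strand) for Zfp988, chr4:146514670-146514969 (plus strand) for Zfp981 and chr4:147553027-147553326 (plus strand) for Zfp985, with capitals for the GC box letters GGGCGG.
Zfp988: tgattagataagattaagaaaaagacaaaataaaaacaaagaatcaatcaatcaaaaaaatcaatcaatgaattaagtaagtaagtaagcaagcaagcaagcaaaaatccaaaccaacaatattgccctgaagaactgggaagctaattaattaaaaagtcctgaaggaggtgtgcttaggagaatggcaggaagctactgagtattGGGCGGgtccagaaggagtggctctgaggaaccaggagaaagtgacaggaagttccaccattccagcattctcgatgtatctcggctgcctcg
Zfp981: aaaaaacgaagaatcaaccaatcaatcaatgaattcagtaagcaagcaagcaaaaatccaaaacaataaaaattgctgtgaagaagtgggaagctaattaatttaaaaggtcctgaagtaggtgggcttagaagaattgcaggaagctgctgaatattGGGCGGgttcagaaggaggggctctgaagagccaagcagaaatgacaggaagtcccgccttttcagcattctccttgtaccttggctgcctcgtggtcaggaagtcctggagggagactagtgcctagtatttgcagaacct
Zfp985: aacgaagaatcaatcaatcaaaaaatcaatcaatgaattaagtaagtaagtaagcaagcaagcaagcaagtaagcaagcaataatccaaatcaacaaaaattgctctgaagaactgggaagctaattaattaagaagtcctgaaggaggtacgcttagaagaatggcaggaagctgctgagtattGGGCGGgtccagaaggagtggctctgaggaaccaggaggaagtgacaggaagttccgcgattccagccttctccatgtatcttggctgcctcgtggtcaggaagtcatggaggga
Each of the 3 windows holds the GC box once. Over all 300 bases, by edit distance, Zfp988 and Zfp985 were 74.7% identical and Zfp988 and Zfp981 57.0%. The windows are placed by annotated starts, and their related letters sit at different offsets. Part of each difference therefore comes from the offset, and the identity of the matching stretches was not measured. Among the windows compared, those of Zfp979, Zfp981, Zfp984, Zfp985 and Zfp988, the identity ran from 56.7 to 83.7%, the highest between Zfp979 and Zfp985.

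Within this run Zfp988 rose, as given above. Zfp981, which lies before it (chr4:146502027-146539395), was counted at 7.33, 8.93, 5.09, 7.93 and 7.22 CPM in DKO 1 to 5, against 13.01, 14.6, 15.1 and 14.2 CPM in WT 1 to 4. Its DKO libraries were all lower (log2 fold change −0.96, SE 0.15, adjusted p = 2.8e-06). Zfp978, the next member after Zfp988, had 13.2, 10.3, 12.8, 11.3 and 11.2 CPM in DKO 1 to 5, against 17.95, 16.3, 17.6 and 20.7 CPM in WT 1 to 4, again with no overlap (log2 fold change −0.63, SE 0.13, adjusted p = 1.0e-04). Zfp992 had 17.9, 16.9, 17.4, 20.1 and 19.00 CPM in DKO 1 to 5, against 24.5, 26.8, 21.2 and 25.4 CPM in WT 1 to 4 (log2 fold change −0.42, SE 0.11, adjusted p = 0.00131), and the lowest WT library was just above the highest DKO library. Zfp984, at the far end, passed narrowly with 9.75 ± 0.817 CPM in DKO and 12.3 ± 0.897 CPM in WT (SD, n = 5 and 4; log2 fold change −0.34, SE 0.14, adjusted p = 0.0469). Its adjusted p lay above 0.05 when WT 1, WT 2, WT 4, DKO 1, DKO 2 or DKO 5 was left out (0.0519 to 0.109), and its exons overlap Gm20707. The other three members did not pass: Zfp979, the most abundant of the run, averaged 59.9 ± 8.03 CPM in DKO and 56.6 ± 4.15 CPM in WT (log2 fold change 0.08, adjusted p = 0.435), Zfp985 26.3 ± 0.763 CPM in DKO and 25.2 ± 2.26 CPM in WT (0.06, 0.610) and Zfp990 32.2 ± 1.80 CPM in DKO and 29.6 ± 3.25 CPM in WT (0.12, 0.291).

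Shared sequence limits these values. The share of 50-base words in a gene's last 500 transcript bases that occur in another gene was 81.2% for Zfp978, 52.5% for Zfp981, 44.1% for Zfp988, 35.3% for Zfp984, 24.6% for Zfp990 and 14.2% for Zfp985, and it was 0 for Zfp992 and Zfp979. Reads from such words can be split between copies or lost, so the values of those 6 genes are uncertain. Without these 6 members the run held 1 fall, that of Zfp992, and no rise. Some 3' words of Zfp985 also occur in Zfp992, so that fall is not free of the limit. Of the run's 10 Zfp genes under 10 CPM, Zfp534, which shares 3' words with Zfp988, rose (9.88 ± 2.85 CPM in DKO and 5.71 ± 1.33 CPM in WT, log2 fold change 0.80, adjusted p = 0.0013). Zfp980 fell (3.52 ± 0.998 CPM in DKO and 6.82 ± 0.620 CPM in WT, −0.95, adjusted p = 0.00039), and Zfp982 and Zfp933 did not pass. Zfp981 shares 3' words with Zfp980, and Zfp978 shares them with Zfp981, so the falls of these genes may not be separate. Zfp987, another Zfp gene sharing 3' words with Zfp988, had 31 counts over the 5 DKO libraries and 23 over the 4 WT libraries and was too low to be tested.

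**Figure D3:**
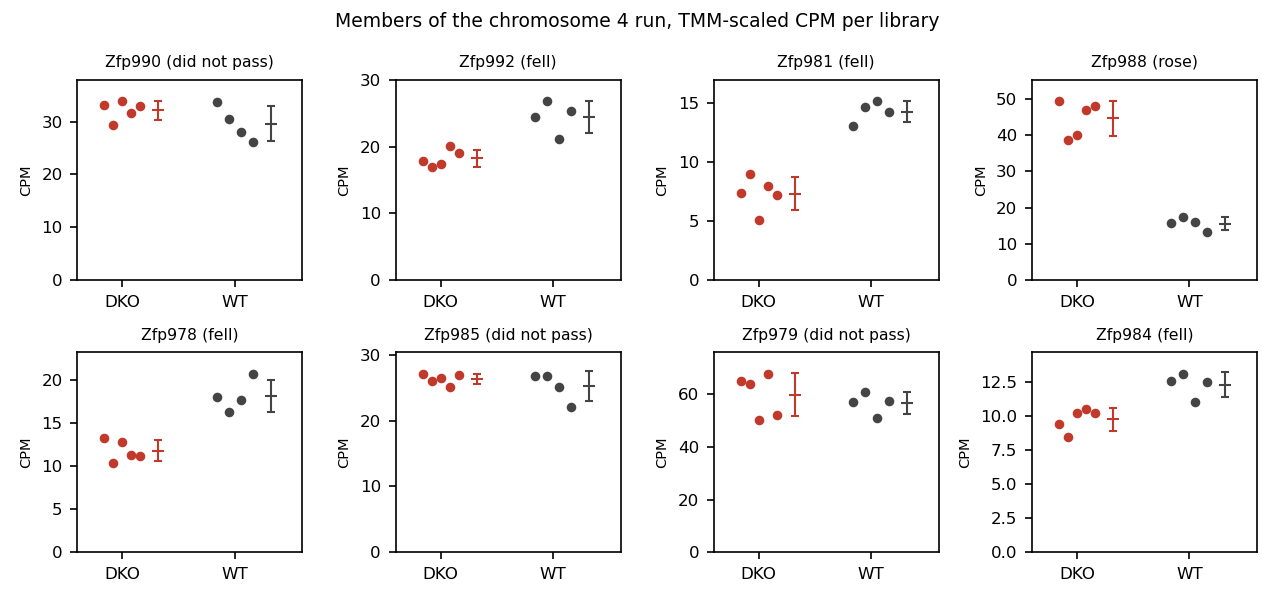
CPM (vertical axis, from 0) of the 8 members of the chromosome 4 run in gene order, DKO left of WT, with points for libraries, a dash for the group mean and whiskers for its SD. Zfp988 is higher in all 5 DKO libraries, Zfp992, Zfp981, Zfp978 and Zfp984 are lower, and Zfp990, Zfp985 and Zfp979 overlap.

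The run at 29.8 to 30.2 Mb of chromosome 7 held mostly rises. Its 7 members, Zfp84, Zfp30, Zfp383, Zfp74, Zfp568, Zfp566 and Zfp260, lie within 0.401 Mb, and all had a log2 fold change above 0 (0.13 to 0.66, median 0.35). Of these, 6 rose and none fell. The 46 other genes tested within 1 Mb had a median of −0.15, with 3 that rose and 14 that fell. None of the 7 members has a 3' word that occurs in another gene. The start-site windows of the first member and of the one with the largest rise are shown as examples from this run. They lie at chr7:29768302-29768601 (plus strand) for Zfp84 and chr7:29954016-29954315 (minus strand) for Zfp74, and capitals mark CACCC or its reverse complement GGGTG, letters that KLF proteins are known to bind.
Zfp84: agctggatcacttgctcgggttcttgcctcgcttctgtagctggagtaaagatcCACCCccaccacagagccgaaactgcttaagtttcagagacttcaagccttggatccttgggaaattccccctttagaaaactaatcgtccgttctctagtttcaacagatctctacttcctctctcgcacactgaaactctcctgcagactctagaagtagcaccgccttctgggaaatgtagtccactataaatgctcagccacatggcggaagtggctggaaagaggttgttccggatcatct
Zfp74: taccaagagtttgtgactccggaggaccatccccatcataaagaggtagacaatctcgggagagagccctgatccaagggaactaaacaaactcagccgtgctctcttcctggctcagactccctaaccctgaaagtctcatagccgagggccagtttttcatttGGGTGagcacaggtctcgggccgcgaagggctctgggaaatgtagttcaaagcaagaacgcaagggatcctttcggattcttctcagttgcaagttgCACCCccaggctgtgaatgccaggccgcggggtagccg
The windows of this run are not alike as a group: pairs were 43.0 to 50.3% identical by edit distance. CACCC or GGGTG also occurs in the window of Zfp566 but not in those of Zfp30, Zfp383 and Zfp260. Of these last genes, Zfp30 and Zfp260 rose as well.

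Zfp74, an 18-finger KRAB gene (chr7:29930815-29954089), was counted at 23.3, 20.2, 17.7, 20.3 and 24.8 CPM in DKO 1 to 5, against 10.9, 14.2, 13.8 and 15.1 CPM in WT 1 to 4. All DKO libraries were higher (log2 fold change 0.66, SE 0.13, adjusted p = 4.9e-05). Zfp84 had 16.3, 14.7, 13.6, 17.2 and 16.6 CPM in DKO 1 to 5, against 11.2, 10.8, 12.2 and 12.2 CPM in WT 1 to 4, also without overlap (log2 fold change 0.43, SE 0.13, adjusted p = 0.00573). Zfp566 had 14.5, 16.9, 13.8, 15.02 and 14.4 CPM in DKO 1 to 5, against 10.8, 12.7, 8.67 and 12.1 CPM in WT 1 to 4 (log2 fold change 0.44, SE 0.14, adjusted p = 0.00884). WT 3 was the lowest library for Zfp566, and without it the adjusted p was 0.0584. Zfp568, a KRAB repressor known in mouse for silencing a placental Igf2 transcript, was by far the most abundant gene of the run, with 162, 156, 169, 184 and 169 CPM in DKO 1 to 5, against 148, 142, 147 and 146 CPM in WT 1 to 4. Its rise was small and its groups did not overlap (log2 fold change 0.20, SE 0.05, adjusted p = 0.00210).

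Zfp30 and Zfp260, a gene studied in the heart, rose with overlapping groups. Zfp30 averaged 13.4 ± 1.96 CPM in DKO and 10.5 ± 1.21 CPM in WT (log2 fold change 0.35, SE 0.14, adjusted p = 0.0466), and its adjusted p lay above 0.05 without WT 1, WT 2, WT 3, DKO 3 or DKO 5 (0.0907 to 0.134). Zfp260 averaged 31.04 ± 2.69 CPM in DKO and 25.9 ± 2.69 CPM in WT (log2 fold change 0.26, SE 0.10, adjusted p = 0.0263), with adjusted p of 0.0651 to 0.0961 without WT 1, WT 2, WT 3 or DKO 3. Zfp383 did not pass (14.6 ± 1.18 CPM in DKO and 13.3 ± 0.803 CPM in WT, log2 fold change 0.13, adjusted p = 0.424). The run's count of 6 risen members was therefore 3 without WT 3 and 4 without WT 1, WT 2 or DKO 3, while no member fell in any of these fits. Of the run's 8 Zfp genes under 10 CPM, Zfp790, Zfp940, Zfp27 and Zfp382 were tested and did not pass, with log2 fold changes of −0.06, −0.12, 0.34 and 0.43.

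**Figure D4:**
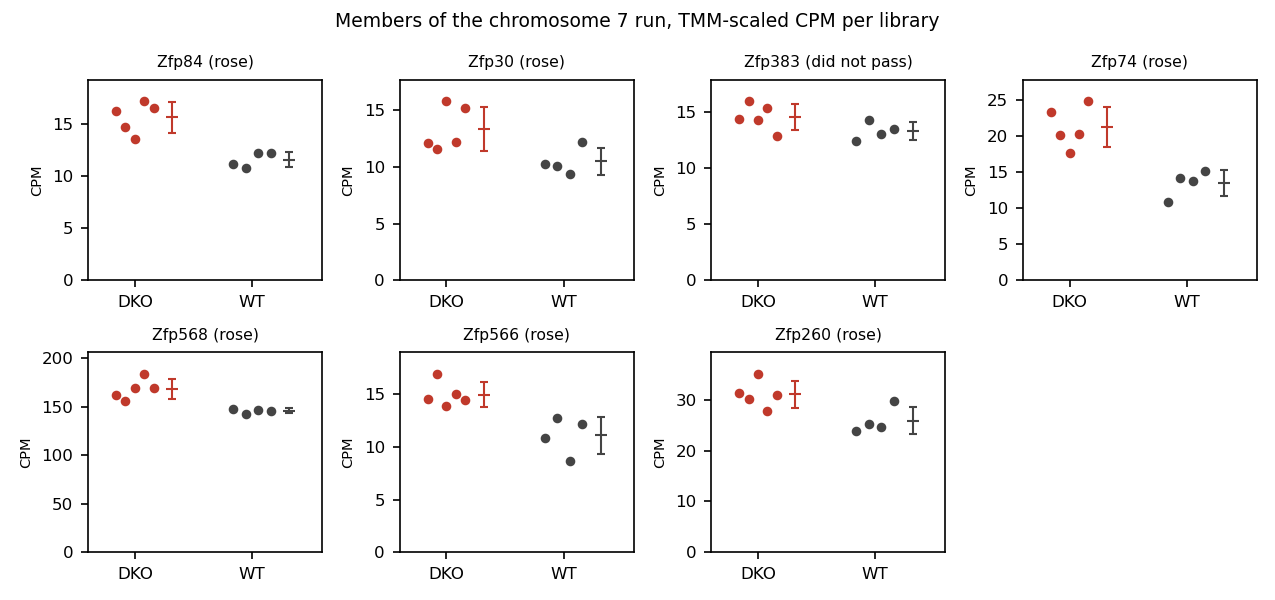
CPM (vertical axis, from 0) of the 7 members of the chromosome 7 run at 29.8 to 30.2 Mb in gene order, DKO left of WT, with points for libraries, a dash for the group mean and whiskers for its SD. Each DKO mean is above its WT mean, and the groups are fully apart in Zfp84, Zfp74, Zfp568 and Zfp566.

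Chromosome 7 as a whole held 39 members, of which 16 rose and 4 fell with a median of 0.22. The 854 other genes tested on it had a median of −0.01, with 21.1% that rose and 23.9% that fell. The run at 127.2 to 127.9 Mb held 4 members, of which 3 rose (median 0.25). Among its 73 other genes within 1 Mb, 13 rose and 18 fell (median −0.04). Zfp553, its most abundant member, had 147, 143, 139, 155 and 141 CPM in DKO 1 to 5, against 117, 117, 121 and 120 CPM in WT 1 to 4, with no overlap (log2 fold change 0.29, SE 0.05, adjusted p = 4.1e-05). Its exons overlap Sept1 on the other strand, and 11.1% of its 3' words occur elsewhere. Zfp771 rose with 49.1 ± 4.26 CPM in DKO and 42.1 ± 1.73 CPM in WT (log2 fold change 0.22, SE 0.08, adjusted p = 0.0209), with adjusted p of 0.0598 to 0.0993 without WT 3, WT 4 or DKO 2. Zfp688 rose with 20.8 ± 1.07 CPM in DKO and 16.5 ± 3.09 CPM in WT (log2 fold change 0.33, SE 0.12, adjusted p = 0.0235), with 0.0865 without WT 1 and 0.135 without WT 3. The run's count was 1 without WT 3 and 1 with DESeq2. Zfp646 did not pass (0.22, adjusted p = 0.203).

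The run at 41.6 to 43.6 Mb of chromosome 7 held 5 KRAB members, 3 of which rose and 1 of which fell (median 0.24). The 22 other genes around it had a median of 0.02. Zfp715 had 23.6, 29.5, 22.2, 27.2 and 26.5 CPM in DKO 1 to 5, against 18.2, 21.3, 16.3 and 16.8 CPM in WT 1 to 4 (log2 fold change 0.51, SE 0.11, adjusted p = 3.0e-04). Zfp936, the more abundant gene, had 54.4, 52.02, 50.1, 50.96 and 59.2 CPM in DKO 1 to 5, against 40.2, 46.8, 35.8 and 44.5 CPM in WT 1 to 4 (log2 fold change 0.35, SE 0.08, adjusted p = 6.2e-04). Neither gene's groups overlapped, and no 3' word of either occurs in another gene. Of the 3' words of Zfp977, 7.5% occur elsewhere, with Zfp936 among the genes that hold them. Zfp977 passed narrowly (34.03 ± 3.54 CPM in DKO and 28.8 ± 3.87 CPM in WT, log2 fold change 0.24, SE 0.10, adjusted p = 0.0462) and lost the call without WT 1, WT 2, WT 3, DKO 1, DKO 4 or DKO 5 (0.0525 to 0.218). Zfp141 fell (24.5 ± 4.11 CPM in DKO and 30.6 ± 2.34 CPM in WT, log2 fold change −0.31, SE 0.11, adjusted p = 0.0161), with 0.0615 without WT 3 and 0.0762 without DKO 4, and 14.2% of its 3' words occur elsewhere. Zfp975, with 39.0% of its words shared, did not pass (0.00, adjusted p = 0.998).

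At 24.1 to 25.2 Mb of chromosome 7 lay 4 members with a median of 0.01. Zfp180, a 12-finger gene, was the 1 that rose, with 27.2, 26.95, 27.9, 33.2 and 34.5 CPM in DKO 1 to 5, against 20.04, 20.4, 23.1 and 25.99 CPM in WT 1 to 4 (log2 fold change 0.42, SE 0.11, adjusted p = 0.00139). Zfp111 (0.09), Zfp428 (−0.08) and Zfp574 (−0.14) did not pass, although Zfp428 passed as a fall without DKO 3 (adjusted p = 0.0475). Of 30 other genes within 1 Mb of this run 3 rose and 11 fell (median −0.16).

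Chromosome 17 held 18 members in all, of which 4 rose and 2 fell. Of its 548 other genes tested, 20.4% rose and 20.3% fell. Its run at 21 to 23.6 Mb had 23 Zfp genes and 7 members, with 2 that rose, 1 that fell and a median of 0.03, beside a median of −0.05 over 32 other genes. The fall was that of Zfp820, whose values are given above. Its start-site window, at chr17:21845710-21846009 (minus strand), is shown with that of Zfp945, the next member along the run, at chr17:22867085-22867384 (minus strand). Capitals mark CACCC or GGGTG and the GC box GGGCGG.
Zfp820: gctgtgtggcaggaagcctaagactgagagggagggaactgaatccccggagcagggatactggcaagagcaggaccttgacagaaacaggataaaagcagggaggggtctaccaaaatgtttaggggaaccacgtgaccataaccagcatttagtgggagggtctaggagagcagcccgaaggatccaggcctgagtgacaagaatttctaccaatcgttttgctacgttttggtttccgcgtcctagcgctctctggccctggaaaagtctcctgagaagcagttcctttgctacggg
Zfp945: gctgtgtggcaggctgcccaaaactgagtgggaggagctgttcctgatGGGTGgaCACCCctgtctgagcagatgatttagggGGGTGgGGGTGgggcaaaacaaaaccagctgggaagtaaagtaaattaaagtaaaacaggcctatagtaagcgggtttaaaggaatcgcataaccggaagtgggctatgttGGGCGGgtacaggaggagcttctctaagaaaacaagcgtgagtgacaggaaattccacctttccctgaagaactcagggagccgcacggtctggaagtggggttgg
The window of Zfp820 holds none of these letters and that of Zfp945 holds both kinds. Zfp945 was lower in every DKO library, with 10.5, 11.6, 10.8, 9.28 and 7.54 CPM in DKO 1 to 5, against 11.97, 11.7, 12.3 and 13.9 CPM in WT 1 to 4, but it did not pass (log2 fold change −0.33, SE 0.15, adjusted p = 0.0622), except without DKO 2 (0.0397). Zfp160 averaged 16.2 ± 1.45 CPM in DKO and 12.7 ± 1.73 CPM in WT (log2 fold change 0.35, SE 0.13, adjusted p = 0.0235) and Zfp760 12.4 ± 0.459 CPM in DKO and 9.23 ± 2.23 CPM in WT (log2 fold change 0.42, SE 0.15, adjusted p = 0.0219). Both calls rested on single libraries: without WT 1 or WT 2 neither passed, Zfp160 also failed without DKO 5 (0.0624) and Zfp760 without WT 4 (0.0904), and with DESeq2 the run held 0 risen members. Zfp229 (0.03), Zfp213 (0.28) and Zfp13 (−0.14) did not pass, and Zfp213 passed as a rise only without DKO 3 (0.0265).

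The chromosome 17 run at 32.8 to 33.6 Mb held 8 members, 7 with a KRAB core, of which 2 rose and 1 fell (median 0.18). The 45 other genes had a median of −0.05. Zfp101 rose with 15.7, 12.2, 10.01, 10.6 and 13.2 CPM in DKO 1 to 5, against 8.38, 7.32, 7.79 and 10.9 CPM in WT 1 to 4 (log2 fold change 0.52, SE 0.16, adjusted p = 0.00746), although DKO 3 and DKO 4 lay within the WT range. Zfp811 rose with 16.05 ± 3.22 CPM in DKO and 12.3 ± 1.27 CPM in WT (log2 fold change 0.38, SE 0.14, adjusted p = 0.0265), and not without WT 1, WT 2 or DKO 2 (0.0518 to 0.150). The fall was that of Zfp414 (23.6 ± 2.39 CPM in DKO and 28.6 ± 1.10 CPM in WT, log2 fold change −0.27, SE 0.10, adjusted p = 0.0197), a gene with 2 predicted fingers and no KRAB core. It lost the call without WT 4, DKO 4 or DKO 5 (0.0544 to 0.0605), it overlaps Gm20507 and 61.4% of its 3' words occur elsewhere. The remaining 5 did not pass, with log2 fold changes of −0.13 for Zfp870, 0.10 for Zfp871, 0.16 for Zfp472, 0.19 for Zfp81 and 0.25 for Zfp763, the last with adjusted p = 0.0541, which lay under 0.05 without WT 2 (0.0481) or DKO 3 (0.0128).

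The run at 67.0 to 67.8 Mb of chromosome 13 held 19 Zfp genes, of which 15 lay under 10 CPM. Of its 4 KRAB members Zfp459 fell and Zfp748 (0.09), Zfp738 (0.04) and Zfp65 (0.20) did not pass, with a median of 0.06. The 15 other genes had a median of −0.01. In a smaller run on chromosome 9, at 19.6 to 20.6 Mb, Zfp26 and Zfp266 rose and Zfp317 did not pass (0.21, adjusted p = 0.0671), except without WT 3 (0.0470) or DKO 3 (0.0224). Zfp266 had 50.99, 46.4, 51.04, 45.4 and 46.8 CPM in DKO 1 to 5, against 37.2, 37.2, 35.7 and 42.5 CPM in WT 1 to 4 (log2 fold change 0.33, SE 0.08, adjusted p = 7.7e-04). The 28 other genes there had a median of 0.00.

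Chromosome 6 held 6 members, of which 2 rose and 1 fell, and of its 544 other genes tested 33.1% rose and 30.9% fell (median 0.07). Genes around its run were lower. The run at 47.8 to 48.6 Mb held 4 members, all below 0 (median −0.19), and of 17 other genes within 1 Mb none rose and 11 fell (median −0.27). Only Zfp775 passed. Zfp777 (−0.17, adjusted p = 0.144) passed without DKO 3 (0.0301), and Zfp212 (−0.22) and Zfp282 (−0.09) did not. Zfp775 lay far below its neighbours' median. Its start-site window at chr6:48601757-48602056 (plus strand) is shown as that of the largest fall, with capitals for CACCC and for the GC box GGGCGG on either strand.
Zfp775: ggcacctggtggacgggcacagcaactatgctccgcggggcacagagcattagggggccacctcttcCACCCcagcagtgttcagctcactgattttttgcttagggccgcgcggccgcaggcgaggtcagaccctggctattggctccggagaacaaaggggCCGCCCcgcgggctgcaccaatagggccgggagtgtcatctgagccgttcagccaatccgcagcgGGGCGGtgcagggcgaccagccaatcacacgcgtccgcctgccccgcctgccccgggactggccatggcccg
This window holds 24 CpG pairs, and that of Zfp988 holds 4. The median was 22 over windows of protein-coding genes of at least 10 CPM and 16 over the members' windows. It was 14 both for members that rose and for members that fell. Elsewhere on chromosome 6, Zfp638 (log2 fold change 0.15) rose among 27 neighbours within 1 Mb of which 3 rose and 18 fell (median −0.39), and Zfp800 rose (12.5 ± 1.45 CPM in DKO and 8.87 ± 1.28 CPM in WT, log2 fold change 0.50, SE 0.15, adjusted p = 0.00593).

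On chromosome 8 the direction of the called members followed their position. The 4 members before Klf2, Zfp958, Zfp930, Zfp866 and Zfp961, all rose, and of the 4 after it, Zfp827, Zfp330, Zfp821 and Zfp1, none rose and 2 fell. Most other genes went the same way. Of 292 tested before Klf2, 68.2% rose and 7.88% fell (median 0.42), and of 349 after it, 5.16% rose and 77.1% fell (median −0.61). How far this shared shift enters the members' values was not tested. Zfp930, a 12-finger KRAB gene, had 76.4, 74.6, 69.6, 76.3 and 68.5 CPM in DKO 1 to 5, against 55.5, 56.9, 52.9 and 58.1 CPM in WT 1 to 4 (log2 fold change 0.39, SE 0.07, adjusted p = 1.3e-05). Zfp866 had 29.8, 29.9, 31.2, 28.9 and 30.6 CPM in DKO 1 to 5, against 20.6, 22.3, 19.8 and 13.9 CPM in WT 1 to 4 (log2 fold change 0.65, SE 0.11, adjusted p = 7.2e-06), and its exons overlap Gm20422 and Atp13a1. Zfp961 rose least (101 ± 5.15 CPM in DKO and 86.4 ± 3.32 CPM in WT, log2 fold change 0.23, SE 0.06, adjusted p = 0.00179). Of its 35 neighbours within 1 Mb, 13 rose and 14 fell (median −0.16). Zfp330 had 43.1, 43.1, 46.1, 44.7 and 38.3 CPM in DKO 1 to 5, against 61.9, 59.01, 63.9 and 56.5 CPM in WT 1 to 4, with every DKO library lower (log2 fold change −0.49, SE 0.07, adjusted p = 1.6e-06), and Zfp1, whose groups met at 34.9 CPM, averaged 30.8 ± 3.11 CPM in DKO and 39.7 ± 3.46 CPM in WT (log2 fold change −0.37, SE 0.09, adjusted p = 0.00113). Zfp827 (0.08) and Zfp821 (0.04) did not pass, and so stood above the median of the genes after Klf2.

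**Figure D5:**
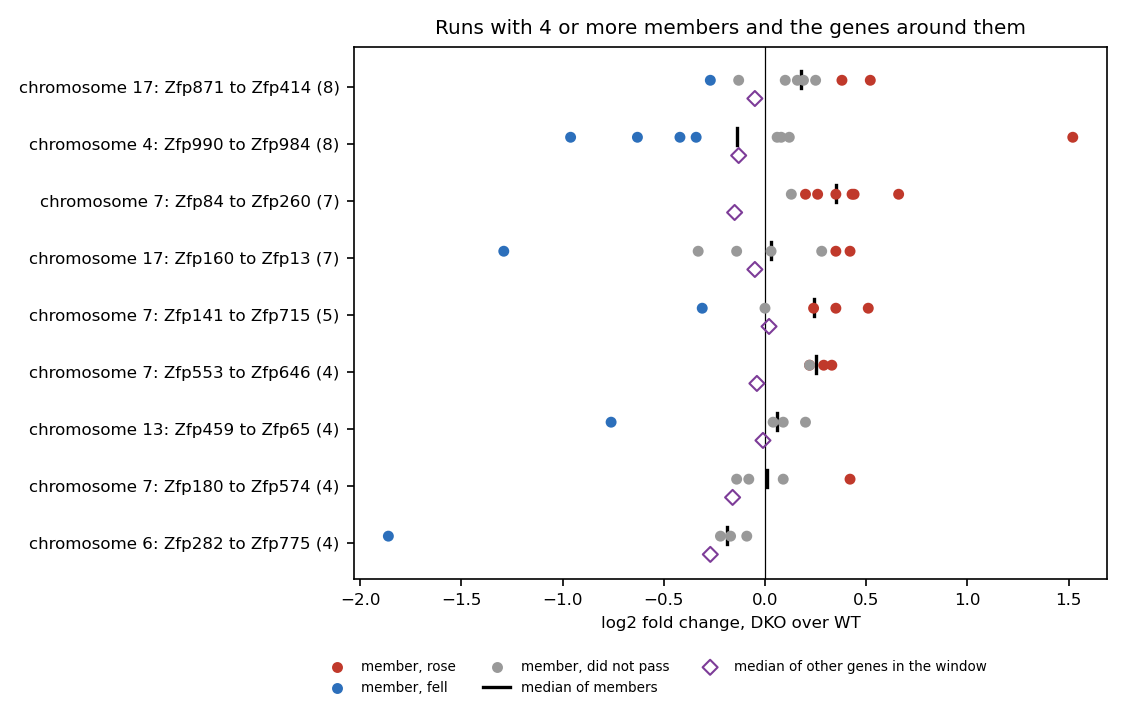
Log2 fold change (DKO over WT, horizontal axis) of the members of each run with 4 or more members, 1 run per line, with a black bar for the members' median and a diamond for the median of the other genes tested within 1 Mb. The members' median lies right of the diamond in 8 of 9 lines, and the chromosome 4 run is the widest, from −0.96 to 1.52.

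Across the 144 members, the Spearman correlation between a member's log2 fold change and the median of its neighbours was 0.17, and it was 0.03 over the 130 members off chromosomes 6 and 8. It is given as a description, since neighbouring members share windows. Off those chromosomes 42 of 130 members rose and 16 fell, with a median of 0.15.

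The smaller runs held few called members. At 75.6 to 76.9 Mb of chromosome 15, 1 of 3 members rose and 1 fell (median 0.05), and at 27.7 to 28.4 Mb of chromosome 7, 1 of 3 rose (median 0.21). In the runs of 3 members on chromosome 7 at 6.1 to 7.2 Mb and at 12.4 to 13 Mb and on chromosome 18 at 24.0 Mb none passed, with medians of 0.17, 0.15 and 0.05. The 57 members that are not described one by one included 14 that rose, 4 that fell and 39 that did not pass, with log2 fold changes from −0.51 to 0.43 and a median of 0.16. Below the limit on level, 135 of the 215 Zfp genes had enough counts to be tested, and 30 rose and 9 fell (median 0.22).

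Outside the large runs, Zfp46 on chromosome 4, a 12-finger KRAB gene, rose with 14.8, 17.2, 16.6, 13.5 and 18.8 CPM in DKO 1 to 5, against 10.02, 11.4, 11.2 and 8.95 CPM in WT 1 to 4 (log2 fold change 0.64, SE 0.14, adjusted p = 2.2e-04). Zfp770 on chromosome 2 rose with 27.5, 33.7, 29.1, 33.9 and 34.4 CPM in DKO 1 to 5, against 20.04, 21.3, 22.9 and 23.4 CPM in WT 1 to 4 (log2 fold change 0.53, SE 0.10, adjusted p = 3.7e-05), and Zfp113 on chromosome 5, a KRAB gene, with 16.4, 16.9, 15.9, 16.9 and 17.9 CPM in DKO 1 to 5, against 10.3, 12.2, 13.96 and 11.4 CPM in WT 1 to 4 (log2 fold change 0.49, SE 0.13, adjusted p = 0.00165). The groups were apart in all of these.

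Of 19 members named for a known role, 5 rose, 3 fell and 11 did not pass, and the share called, 42.1%, lay near that of all genes. Zfp207, which encodes the spindle assembly factor BuGZ, was the most abundant member with 598 ± 26.2 CPM in DKO and 614 ± 31.8 CPM in WT (SD, n = 5 and 4; log2 fold change −0.04, adjusted p = 0.543). Zfp106, an RNA-binding protein needed in motor nerves and muscle in mouse, followed with 560 ± 20.4 CPM in DKO and 538 ± 16.6 CPM in WT (0.06, 0.310), and then Zfp428 with 287 ± 25.2 CPM in DKO and 302 ± 10.2 CPM in WT (−0.08, 0.256). Neither these nor the next few passed. They comprise Zfp143, an activator that binds many promoters (0.02), Zfp326, of a complex linking RNA polymerase II to splicing (−0.07), Zfp335, a factor needed in neural progenitors (−0.07), Zfp410, known as an activator of Chd4 (−0.08), Zfp644, a partner of the G9a and GLP methyltransferases (0.02), Zfp830, needed in the early mouse embryo (0.07), and Zfp292 (−0.06). The same holds for Zfp598, a ubiquitin ligase that senses collided ribosomes (−0.07), and Zfp622, a factor of large ribosomal subunit maturation (0.00).

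The following genes passed. Zfp706, linked in mouse ES cells to exit from the naive state, had 278, 263, 291, 300 and 314 CPM in DKO 1 to 5, against 228, 225, 226 and 206 CPM in WT 1 to 4, with no overlap (log2 fold change 0.39, SE 0.05, adjusted p = 2.1e-07). Of its 3' words 38.6% occur elsewhere and its exons overlap Gm26766 on the other strand, so its level is uncertain. Zfp217, a partner of corepressor complexes, fell, with 52.9, 46.5, 53.7, 45.7 and 43.8 CPM in DKO 1 to 5, against 62.8, 62.7, 59.4 and 66.5 CPM in WT 1 to 4 (log2 fold change −0.37, SE 0.08, adjusted p = 1.0e-04). Zfp593, related to a yeast factor of large ribosomal subunit export, fell as well, with 87.3, 84.9, 86.5, 78.8 and 74.3 CPM in DKO 1 to 5, against 109, 99.9, 99.6 and 104 CPM in WT 1 to 4 (log2 fold change −0.33, SE 0.06, adjusted p = 4.9e-05). In both of these every DKO library lay under every WT library. Zfp687 and Zfp592 encode related proteins of a complex with ZMYND8, and both rose: Zfp687 averaged 45.3 ± 4.36 CPM in DKO and 35.9 ± 5.62 CPM in WT (log2 fold change 0.34, SE 0.10, adjusted p = 0.00393) and Zfp592 43.3 ± 3.44 CPM in DKO and 37.02 ± 2.42 CPM in WT (log2 fold change 0.23, SE 0.08, adjusted p = 0.0237). The groups overlapped in both, and Zfp592 did not pass without WT 2, WT 4, DKO 1 or DKO 5 (0.0542 to 0.0935). Zfp91, a ubiquitin ligase, rose (116 ± 5.12 CPM in DKO and 98.4 ± 4.35 CPM in WT, log2 fold change 0.23, SE 0.06, adjusted p = 0.00115), and its exons overlap Cntf. Zfp638, whose human counterpart silences unintegrated retroviral DNA, rose by a small amount (142 ± 5.02 CPM in DKO and 128 ± 4.58 CPM in WT, log2 fold change 0.15, SE 0.05, adjusted p = 0.0183), and not without WT 2 (0.0869) or DKO 4 (0.0527). Of its 3' words 26.4% occur elsewhere, so its level is uncertain. Zfp296, a gene of pluripotent and germ cells, fell (57.4 ± 6.03 CPM in DKO and 67.4 ± 7.42 CPM in WT, log2 fold change −0.23, SE 0.08, adjusted p = 0.0163), with WT 1 well above the other WT libraries. Its adjusted p was 0.132 without WT 1 and 0.0696 without DKO 2.

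Protein architecture was read from the translated coding sequences. A C2H2 spacing pattern found a median of 9 fingers per member, from 0 to the 36 of Zfp142. A KRAB core pattern, which misses some diverged KRAB domains, matched 55 members. Of these 55 members 22 rose and 10 fell (58.2% called, median log2 fold change 0.19), and of the 89 without it 26 rose and 9 fell (39.3% called, median 0.08). Among protein-coding genes of at least 10 CPM 52.1% were called (26.9% rose and 25.2% fell), and among all genes tested 47.8%. KRAB members were lower in level, with a median of 18.8 CPM against 31.0 CPM for the others, and had more fingers, 11 against 7. By finger number, 26 of 69 members with 10 or more fingers rose and 8 fell (median 0.20), 16 of 56 members with 3 to 9 rose and 8 fell (median 0.08), and 6 of 19 members with 0 to 2 rose and 3 fell (median 0.03). Across members, the Spearman correlation of finger number with log2 fold change was 0.23, with mean CPM −0.31, and that of mean CPM with log2 fold change −0.16. These measures go together, and no test was made of the one without the others.

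Counting could blur some members. Of 144 members, 124 have no 3' word that occurs in another gene (41 rose, 13 fell, median 0.14). Of the others, 12 share at least 10% of their words (4 rose, 5 fell, median 0.03). The share called was 75.0% of these 12, 43.5% of the 124 and 47.8% of all genes tested. Calls were thus most frequent where the assignment of reads is least certain. Exons of 50 members overlap another annotated gene (14 rose, 7 fell), and those of 94 do not (34 rose, 12 fell, median 0.15). With the strand setting of the counting unknown, reads of overlapping genes cannot be assigned with certainty.

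Among the partners through which KRAB zinc finger proteins act, more genes fell than rose. Of 24 genes examined (TRIM28 complexes, heterochromatin proteins, HUSH, and DNA and H3K9 methylation), 2 rose, 12 fell and 10 did not pass, with a median log2 fold change of −0.13 beside 0.01 over all genes tested. Of all genes 23.9% rose and 24.0% fell. Trim28, the corepressor itself, averaged 997 ± 40.4 CPM in DKO and 1104 ± 42.8 CPM in WT (−0.15, adjusted p = 0.00536), with DKO 3 inside the WT range. Setdb1, the H3K9 methyltransferase, averaged 59.0 ± 4.48 CPM in DKO and 76.3 ± 3.55 CPM in WT (−0.37, adjusted p = 3.6e-05), with no overlap. Cbx1 (−0.36) and Cbx3 (−0.32), 2 of the 3 heterochromatin protein 1 genes, fell, as did Hells (−0.30) and Uhrf1 (−0.30), which help DNA methylation, while Cbx5 (−0.08) and Dnmt1 (0.10) did not pass. Atf7ip, a SETDB1 partner, rose (83.7 ± 6.14 CPM in DKO and 60.4 ± 7.16 CPM in WT, 0.47, adjusted p = 3.1e-06), and so did Daxx, a histone chaperone partner of ATRX (0.16, adjusted p = 0.00700). Atf7ip and Cbx3 lie on chromosome 6, where 33.1% of 544 genes outside the Zfp series rose and 30.9% fell. Chd4 (−0.03) and Smarcad1 (−0.03) lie there too and did not pass. How far shifts along that chromosome enter these values was not tested.

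The start-site windows were searched for CACCC, the letters of KLF binding sites, and for the GC box GGGCGG, on both strands, and overlapping matches were counted. Of the 144 members, 117 were matched by symbol to 142 RefSeq windows. CACCC occurred in 57.7% of the members' windows, 57.5% of all 32851 windows and 61.8% of those of protein-coding genes of at least 10 CPM. It occurred in 63.3% of 49 windows of members that rose and 44.4% of 18 windows of members that fell. Those 18 windows, 8 of which held it, belong to 14 genes. Of 75 windows of members that did not pass, 57.3% held it. GGGCGG occurred in 54.9% of the members' windows, 35.7% of all windows and 66.8% of those of protein-coding genes of at least 10 CPM. By direction it occurred in 53.1% of windows of members that rose, 55.6% of those that fell and 56.0% of those that did not pass. Neither split by direction was tested. A match describes the letters and not a bound site.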

How the data were processed

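The deposited table gives the authors' exon counts as whole numbers, with no normalization, for 9 libraries. The submitters' processing notes name mm10, cutadapt, STAR, featureCounts and DESeq2. Tool versions, annotation release, strand setting and multi-mapping are not given there. Symbols, positions and exons came from GENCODE mouse release M21 by identifier (52403 of 52550 rows matched, 147 did not).

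Genes were kept by filterByExpr, scaled by TMM (factors 0.9849 to 1.0137) and tested with edgeR 4.0.16 in R 4.3.3 by the quasi-likelihood test on the genotype label, with Benjamini-Hochberg adjustment over 11893 genes at 0.05. DESeq2 1.42.0 was an alternative. CPM for membership are counts over the library total; CPM in the comparisons are TMM-scaled as well. Intervals are SD over libraries or SE of the fit. The procedure was tested on simulated data (11722 genes, with the same numbers of libraries), in which 200 genes were changed. Of genes changed by 1 on the log2 scale 91% were called, and of those changed by 0.5, 64.9%. In the data 5689 genes were called, so the adjustment acted under unlike conditions and these shares need not hold there. Of 16 within-group library pairs none agreed within sampling noise (chi-square per degree of freedom 2.215 to 4.976).

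The members and the gene lists were chosen with earlier results of these data known. Named were the 10 largest non-overlapping rises and falls, the 3 most abundant members, the members nearest the limit, members of runs of 4 or more that passed with a change of at least 0.5, and genes with known roles. The other members of the runs, of chromosomes 6, 8 and 9 and a few more were named after their values were seen. Pattern searches for fingers and KRAB cores used the longest coding sequence of each gene.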

Additional observations from a re-analysis of the deposited data

Results flagged for a closer look

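In 7 of 174 groups examined (87 named members in 2 genotypes), the highest or lowest library stood apart from the rest of its group by Dixon's criterion, which chance alone meets in about 1 group of 20. Zfp706 was lowest in WT 4 at 206 CPM, Zfp229 in WT 3 at 37.3 CPM, Zfp292 in WT 1 at 254 CPM and Zfp213 in DKO 3 at 8.70 CPM. Zfp771 was highest in DKO 2 at 56.6 CPM, Zfp800 in WT 1 at 10.8 CPM and Zfp296 in WT 1 at 78.5 CPM.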

How the results depend on the processing

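Among the counts over all members, the 48 rises were 37 to 51 and the 19 falls 16 to 21 with 1 library left out. With a limit of 20 CPM 30 members rose and 12 fell, and 12 fell without members whose exons overlap another gene. DESeq2 called 50 of the 67 members called by edgeR. With 1 library left out, risen members numbered 3 to 6 on chromosome 7 at 29.8 Mb, 2 to 3 at 41.6 Mb and 1 to 3 at 127.2 Mb, 0 to 3 on chromosome 17 at 21 Mb and 1 to 3 at 32.8 Mb. Fallen members numbered 1 to 2 and 0 to 1 in the same chromosome 17 runs, 3 to 4 on chromosome 4, 1 to 2 on chromosome 6, and 0 to 1 on chromosome 7 at 24.1 and at 41.6 Mb. With DESeq2 the risen were 0 and 1 in the chromosome 17 runs and 1 on chromosome 7 at 127.2 Mb. With runs ended by a gap of 2 Mb, 1 rose on chromosome 13 and 2 fell on chromosome 7 at 41.6 Mb. Without members that share 3' words (chosen after seeing the data, as were the overlap and library 1 to 4 settings), chromosome 4 held 0 rises and 1 fall, and the falls at 32.8 Mb of chromosome 17 and 41.6 Mb of chromosome 7 were 0. The cause of these shifts was not tested, other than that fewer members or libraries enter. No called value of a named member changed sign. Of 49 named members that passed, 34 passed under every alternative in which they were fitted, and 6 that did not pass did so under some.

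The labels give both genotypes the numbers 1 to 4. Deviations of same-numbered libraries correlated at 0.069, 0.01, 0.07 and 0.034 over 11893 genes. Each library correlated best with its own number in the other genotype. The correlations were low, none over 0.1, and the main fit did not take the numbers as pairs. Whether the numbers mark a shared batch was not tested. With a replicate block, fitted on libraries 1 to 4 of each group, 61 of the 67 called members remained called. The chromosome 17 run at 21 Mb then held 1 rise and that at 32.8 Mb 0 falls. Libraries 1 to 4 without the block gave the same 1 and 0, and 58 members remained called. Over all genes 5497 were called with the block and 5263 without it. Of members of 10 to 20 CPM 41.7% were called, and of those of 50 CPM or more 45.5%.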
